A study of Homo sapiens with 3 samples.

Results

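Wide intergenic H3K27ac peaks are long stretches of acetylated chromatin that lie between protein-coding genes. They were chosen by width and position from the H3K27ac peak list on chromosomes 1 to 22 and X, as peaks of at least 2500 bp whose summit lay outside every protein-coding gene record and more than 2.5 kb from every gene end. The rule found 1511 such peaks among 48621, and they made up 9.57% of the 15786 peaks with an intergenic summit. Width was a criterion and fold comes from the same peak call, so both are given as descriptions.

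The cells were THP1, a line grown from a human monocytic leukaemia and of wild type genotype, and all had been exposed to the phorbol ester PMA over 24 h, an agent used to turn such cells into adherent, macrophage-like cells. Chromatin was precipitated with antibodies against H3K27ac (Abcam ab4729) or the deacetylase Sirt1 (CST 8469S), and an input with no antibody made the set up to 3 samples; the input track was not used here. Every group held 1 library, all from a single line, so no value below has a replicate check and no p-value was computed. Untreated cells are not among the samples used here, so nothing below is a response to PMA.

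Acetylation of lysine 27 on histone H3 is laid down by the acetyltransferases p300 and CBP at active promoters and active enhancers. Enhancers are stretches of DNA that bind transcription factors and raise transcription from promoters that can lie far away, and in macrophages many are bound by PU.1, C/EBP and AP-1 proteins. Broad or clustered acetylated enhancers are often found near genes that define a cell type. SIRT1 is an NAD-dependent deacetylase with histones and NF-kB among its known substrates. Acetylation alone does not separate an enhancer from an unannotated promoter, and H3K4me1, the other mark in common use for enhancers, was not analysed here.

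Some of these peaks carried genes after all, namely noncoding ones, and the microRNAs among them are shown here because their hairpins lie directly under the acetylated stretch. Of 1558 microRNA hairpins with a sequence in the RefSeq table (build GRCh38.p14), 183 lay in any H3K27ac peak and 12 in a wide intergenic one, which is 0.77% of hairpins, over the chromosomes in that table. The 12 hairpins sat in 10 peaks and gave 19 mature sequences, each with a seed of its own. The mature sequences of the best known follow, 5′ to 3′, with the seed (bases 2 to 8) in capitals.
hsa-miR-142-5p: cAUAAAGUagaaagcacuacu
hsa-miR-142-3p: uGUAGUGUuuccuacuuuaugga
hsa-miR-23a-3p: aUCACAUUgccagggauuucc
hsa-miR-27a-3p: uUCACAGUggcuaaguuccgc
hsa-miR-24-3p: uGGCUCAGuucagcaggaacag
hsa-let-7i-5p: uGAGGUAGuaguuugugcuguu
hsa-miR-193a-5p: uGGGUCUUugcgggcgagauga
hsa-miR-193a-3p: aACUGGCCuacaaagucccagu
hsa-miR-223-5p: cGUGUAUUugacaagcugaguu
hsa-miR-223-3p: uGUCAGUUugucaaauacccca

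MIR142, a microRNA gene of blood cells, had its hairpin at chr17:58331232-58331318 on the minus strand, 787 bp from the summit of a peak of 10647 bp. That peak, chr17:58330282-58340928, had a fold of 106 over the local background from 265 fragments at the summit. The cluster of MIR23A, MIR27A and MIR24-2 lay together under a peak of 10435 bp at chr19:13833961-13844395 with a fold of 101 from 264 fragments. MIRLET7I, a let-7 gene, lay 634 bp from a summit with a fold of 77.6 from 319 fragments. MIR193A lay 548 bp from a summit with a fold of 59.9.

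MIR223, a myeloid microRNA gene on chromosome X, stood lower than these, with a fold of 19.1 from 36 fragments, although its peak was 9047 bp wide. Its hairpin at chrX:66018870-66018979 lay 3224 bp from the summit. Wide intergenic peaks on chromosome X had a median fold of 19.1 as well, against 23.3 for all wide intergenic peaks. MIR4734, MIR6080, MIR4710, MIR4425 and MIR3180-1 were the others of the 12, with folds of 57.7, 22, 20.6, 13.5 and 8.87 at their peaks. A SIRT1 peak overlapped 1 of the 10 peaks, the one with MIR4425. The MIR4736 record, not among the 12, also lay in the MIR142 peak.

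**Figure D1:**
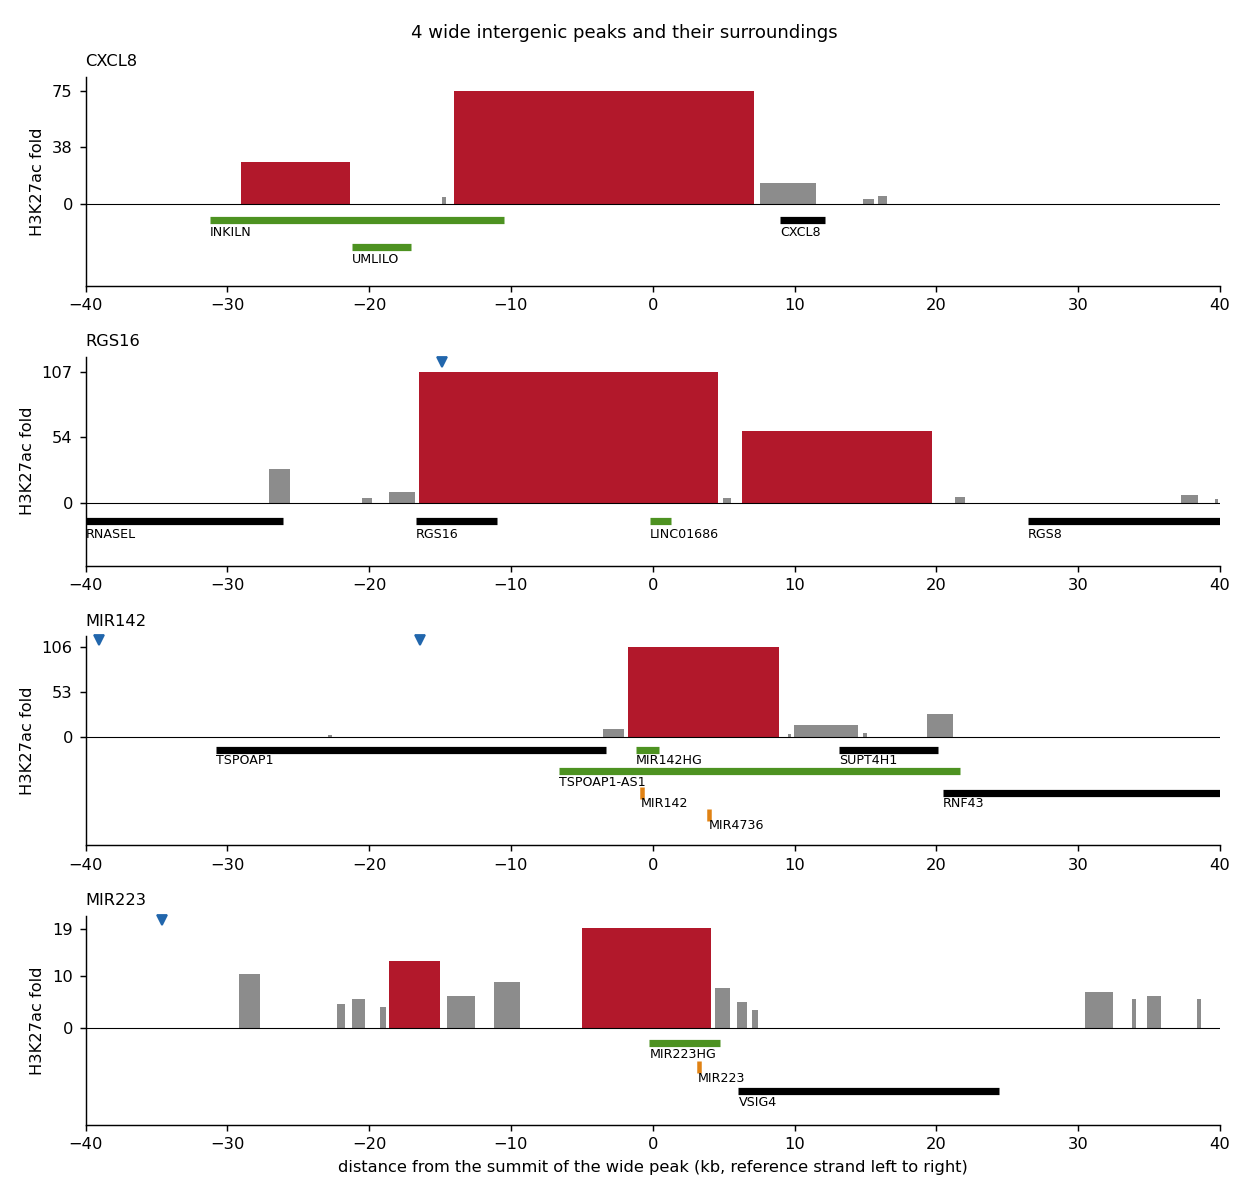
H3K27ac peaks within 40 kb of the summit of 4 wide intergenic peaks, named by a gene beside or under each; x axis, distance from the summit in kb; y axis, fold at each peak's summit drawn over its full width. Red bars are wide intergenic peaks, grey bars other H3K27ac peaks, blue triangles SIRT1 peaks, and the lines below are gene records (black protein-coding, green lncRNA, orange microRNA). The CXCL8 peak of 21164 bp ends short of the gene itself, which carries a separate peak with a fold of 13.8, whereas the RGS16 peak of 21081 bp runs over most of the RGS16 record.

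Noncoding genes were common at these peaks. A summit lay inside the record of a long noncoding RNA (lncRNA) for 501 of 1511 wide intergenic peaks, or 33.2% (95% exact binomial interval 30.8 to 35.6%), against 27.9% of narrower intergenic peaks and 15.5% of all H3K27ac peaks. The share was 9.41% for wide peaks inside gene bodies and 13.2% for wide peaks at gene ends, but the rule leaves coding genes out, so the narrower intergenic peaks are the closer comparison. Noncoding records of any kind that held a summit or lay within 2.5 kb of one numbered 680, or 1.74% of 39124, and they belonged to 672 wide intergenic peaks.

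Start sites were read from the strand in the RefSeq promoter table, on the chromosomes it holds; chromosome 8, with 119 of the wide intergenic peaks, was not used for this or for the hairpin counts above. Of 1392 wide intergenic peaks, 156 held the start of a noncoding gene, or 11.2% (9.6 to 13.0%), against 2.54% of narrower intergenic peaks and 4.43% of all H3K27ac peaks. Among the other wide sets the share was 6.27% inside gene bodies and 19.7% at gene ends. A wider peak covers more ground, and per Mb the order was different. Wide intergenic peaks held 32.6 starts per Mb (28.2 to 37.5), wide peaks inside gene bodies 15.6 and wide peaks at gene ends 56.2. Narrower intergenic peaks held 38.5 (34.8 to 42.6) and all H3K27ac peaks 42.1 (40.4 to 43.8), so wide intergenic peaks stood below H3K27ac peaks as a whole. A start lay within 1 kb of the summit for 115 peaks, or 8.26% (6.87 to 9.83%), against 4.44% of narrower intergenic peaks, 4.01% of wide peaks inside gene bodies, 16.9% of wide peaks at gene ends and 5.97% of all H3K27ac peaks. Those 115 peaks had a median fold of 35.6 (31.5 to 42.3), and the other 1277 had 22.7 (21.9 to 23.7), at median widths of 3564 and 3522 bp.

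Of the 20 noncoding host and lncRNA genes on a list written for macrophages, 10 had a wide intergenic summit in or within 2.5 kb of their record, against 1.74% of all noncoding records. The list was written with earlier results of these data known, so the count is a description. The 1.74% covers noncoding records of every kind, whereas the list was chosen by hand, so this is not a like comparison. MALAT1, an abundant nuclear RNA, lay under a peak of 16714 bp at chr11:65486665-65503378 with a fold of 108 from 316 fragments. CYTOR had summits with folds of 66.5 and 47.0, and LUCAT1 a fold of 62.1. Much of the sequence at the CYTOR start is repeated at MIR4435-2HG, under a peak with a fold of 63.7. How reads were placed between these 2 copies is not known here. MIR17HG, host of the miR-17-92 cluster, stood at 42.0, MIR155HG, host of miR-155, at 31.5, and MIR3142HG, whose record also hosts miR-146a, at 17.2. LINC-PINT and MIR222HG each spread over several wide peaks, with highest folds of 51.7 and 26.8, and PVT1 had 31.9 and 23.4.

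By fold alone, the noncoding genes at the strongest peaks were SLC39A13-AS1 (141), LINC01816 (119), ARHGEF2-AS1, MALAT1 and its antisense TALAM1 (108 at both peaks), LINC01686 (107), and MIR142, MIR142HG and TSPOAP1-AS1 (106), followed by LOC101929650 (103). ARHGEF2-AS1, TALAM1 and MIR142 lay near their summit, and the rest held it in their record. The ChIP signal has no strand, so a sense and an antisense gene over the same peak cannot be told apart.

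Promoters of 5 such noncoding genes, each 250 bases before to 50 after the start, are shown. They were picked after their values were seen from the 195 noncoding starts inside wide intergenic peaks, so they need not be typical. They are written 5′ to 3′ on the gene's strand, with matches to the letters searched in capitals.
MIR155HG: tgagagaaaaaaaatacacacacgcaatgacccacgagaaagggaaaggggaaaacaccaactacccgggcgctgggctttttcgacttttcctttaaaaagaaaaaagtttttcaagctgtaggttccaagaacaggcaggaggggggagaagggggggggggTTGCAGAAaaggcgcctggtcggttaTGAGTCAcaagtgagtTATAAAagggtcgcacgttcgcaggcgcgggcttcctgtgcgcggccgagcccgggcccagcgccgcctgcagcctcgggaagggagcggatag
LUCAT1: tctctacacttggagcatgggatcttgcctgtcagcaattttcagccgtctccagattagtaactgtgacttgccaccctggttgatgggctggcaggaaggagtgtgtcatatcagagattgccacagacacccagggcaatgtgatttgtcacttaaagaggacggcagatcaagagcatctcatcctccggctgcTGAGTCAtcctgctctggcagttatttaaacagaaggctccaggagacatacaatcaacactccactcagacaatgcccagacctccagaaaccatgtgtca
CYTOR: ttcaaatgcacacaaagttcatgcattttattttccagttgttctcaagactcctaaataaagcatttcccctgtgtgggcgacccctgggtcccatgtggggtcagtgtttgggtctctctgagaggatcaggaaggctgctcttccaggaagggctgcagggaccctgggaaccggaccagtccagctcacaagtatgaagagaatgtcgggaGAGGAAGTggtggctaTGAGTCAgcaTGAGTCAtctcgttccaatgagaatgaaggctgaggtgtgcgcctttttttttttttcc
MIR3142HG: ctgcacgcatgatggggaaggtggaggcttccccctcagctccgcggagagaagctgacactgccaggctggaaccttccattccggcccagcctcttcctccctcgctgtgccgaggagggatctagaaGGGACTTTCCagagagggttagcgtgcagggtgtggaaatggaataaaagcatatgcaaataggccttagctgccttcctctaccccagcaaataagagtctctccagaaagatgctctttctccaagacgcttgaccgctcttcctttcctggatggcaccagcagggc
MIR142HG: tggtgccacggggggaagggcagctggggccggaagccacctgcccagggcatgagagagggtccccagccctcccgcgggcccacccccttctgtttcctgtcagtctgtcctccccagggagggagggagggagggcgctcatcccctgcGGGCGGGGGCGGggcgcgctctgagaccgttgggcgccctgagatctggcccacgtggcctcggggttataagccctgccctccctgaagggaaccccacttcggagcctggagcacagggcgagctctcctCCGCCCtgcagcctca

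Both strands were searched. The letters were TGANTCA for AP-1, GAGGAAGT for PU.1, TTGCNNAA for C/EBP, TATAAA for the TATA box and GGGCGG for the GC box, and a 10-letter NF-kB motif was used by name. No motif contains another, though matches may touch. MIR155HG, at chr21:25561895-25562194 on the plus strand, held 1 AP-1, 1 C/EBP and 1 TATA match and started 177 bp from the summit. CYTOR, at chr2:87455177-87455476, held 2 AP-1 and 1 PU.1 match, and LUCAT1, at chr5:91314353-91314652 on the minus strand, 1 AP-1 match. MIR3142HG, at chr5:160468001-160468300, held 1 NF-kB match. MIR142HG, at chr17:58332471-58332770 on the minus strand, held 3 GC boxes and a G and C content of 71.3%. Among listed genes not printed, LINC-PINT held 2 AP-1 matches. Windows of MALAT1, MIR23AHG, MIR17HG and MIR222HG held no AP-1, PU.1, C/EBP or NF-kB match.

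Among 195 noncoding starts in wide intergenic peaks, 48 windows held the AP-1 letters, or 24.6% (18.7 to 31.3%), against 6.87% of 2125 noncoding starts in other H3K27ac peaks, 10.7% of 10509 noncoding starts outside H3K27ac peaks and 7.68% of all 34961 promoters. PU.1 letters stood in 6.15% (3.22 to 10.5%), 3.48%, 2.26% and 2.59% of the same 4 sets, and NF-kB letters in 4.62% (2.13 to 8.58%), 2.68%, 1.67% and 1.92%. C/EBP letters gave 14.9% (10.2 to 20.7%) in wide intergenic peaks, close to the 14.7% outside H3K27ac peaks and above the 7.06% in other H3K27ac peaks and the 10.4% of all promoters. GC boxes were in 34.9%, against 61.7% in other H3K27ac peaks, 18.1% outside H3K27ac peaks and 45.0% of all promoters, and TATA boxes in 9.23%, against 4.47%, 17.4% and 11.5%. The other H3K27ac peaks include those at coding gene ends. Shares for starts in narrower intergenic peaks alone, the closer comparison, are not given, so a trait of wide peaks and one of starts far from coding genes cannot be told apart here.

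Base composition also differed between the 4 sets. The GC box shares followed its order. The AP-1, PU.1 and NF-kB shares were highest in wide intergenic peaks. For PU.1 and NF-kB, however, the intervals there include the 3.48% and 2.68% of other H3K27ac peaks. Median G and C content was 55.0% in windows of wide intergenic peaks, 65.3% in other H3K27ac peaks, 47.3% outside H3K27ac peaks and 58.7% in all promoters, and its part in the motif shares was not tested. Some windows overlap where genes share a start region, and some repeat the same sequence at another locus. MIR4435-2HG repeats much of the CYTOR window, and SOCAR that of LINC01943, all on chromosome 2. Such windows are not independent, and the intervals do not allow for this. A match is a description of letters and not of a bound site.

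Among themselves the wide intergenic peaks spanned a large range. Widths ran from 2500 to 22723 bp with a median of 3544 bp; 338 peaks reached 5 kb and 43 reached 10 kb. Together they covered 6.47 Mb, 11.2% of all acetylated bases from 3.11% of the peaks. Fold, the authors' ratio of summit signal to local background, had a median of 23.3 (95% exact order-statistic interval 22.2 to 24.3) and ran from 3.83 to 141. The median was 23.1 for 1860 wide peaks inside gene bodies, 37.9 for 1992 wide peaks at gene ends and 5.55 for 14275 narrower intergenic peaks.

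The fragments behind these values were recovered from fold and p. At the summit the wide intergenic peaks had a median of 61 fragments (13 to 533), wide peaks inside gene bodies 61, wide peaks at gene ends 132 and narrower intergenic peaks 12. The local background, in units of the lowest rate in the list (the floor), had medians of 1.73, 1.73, 2.56 and 1.38 in the same order. A fold is relative to that background, so equal folds at unequal backgrounds rest on unequal fragments.

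**Figure D2:**
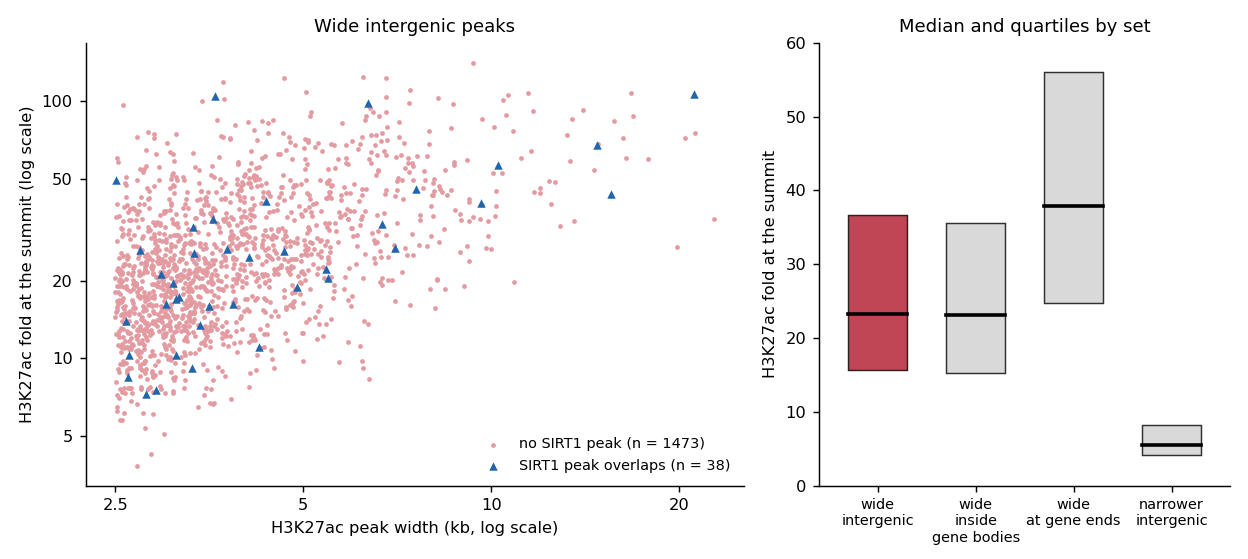
Left, each of the 1511 wide intergenic peaks by width (kb, log scale) and H3K27ac fold (log scale), with blue triangles for the 38 that overlap a SIRT1 peak. Right, median (line) and quartiles (box) of fold for wide intergenic peaks, wide peaks inside gene bodies, wide peaks at gene ends and narrower intergenic peaks, at medians of 23.3, 23.1, 37.9 and 5.55; the triangles run from a fold of 7.25 to 107.

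The limits of the rule fell within a continuous range. The narrowest members, near CTAGE1, KIAA1755 and NOX3, were all 2500 bp wide with folds of 18.2, 20.6 and 14.5, and the widest peaks left out, near SUGP2, MDGA1 and IFNGR2, were 2497, 2497 and 2496 bp wide with folds of 12.9, 13.5 and 10.6. The 99 narrowest members, within 100 bp above the width limit, had a median fold of 16.7, and the 109 peaks within 100 bp below it had 15.5. At the distance limit, the members closest to a gene end lay 2571 bp from MAPK13, 2617 bp from MON2 and 2635 bp from N4BP1. The peaks just excluded lay 2457 bp from S100A11, 2442 bp from PLIN3 and 2395 bp from ADTRP.

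Only the summit was placed between genes, and 85 wide intergenic peaks (5.63%) reached with an edge to within 2.5 kb of a gene. Of these, 10 touched a gene record and 5 held an annotated start of a protein-coding gene, a count that leaves out chromosome 8. RGS16, a brake on G protein signalling, was among them: its peak at chr1:182598891-182619971 held a coding start and had its summit 11.0 kb from the gene, beside the start of LINC01686.

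The strongest peak by fold was chr11:47387241-47396598, with a fold of 141 from 520 fragments. SLC39A13, a zinc transporter gene, was its nearest gene at 11.9 kb, and SPI1, which encodes the macrophage factor PU.1, lay 16.9 kb from the summit on the other side. An upstream regulatory element of SPI1 is known on that side of the gene. A nearest gene is given throughout as a neighbour and not as a target.

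Among the next by fold were a peak at chr9:129410723-129416952 near LOC124900275 (125), peaks near VPS37C (123), PLEKHO2 (123), C2orf42 (119), MTSS1 (111), ARHGEF2 (108) and FRMD8 (108), and the RGS16 peak (107). VPS37C takes part in endosomal sorting, PLEKHO2 carries a pleckstrin domain, MTSS1 binds actin and membranes, and ARHGEF2 activates RhoA. Fragments at these summits ranged from 243 near C2orf42 to 524 near RGS16. Distances to the nearest gene ran from 5.17 kb at VPS37C to 86.9 kb at MTSS1.

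The widest peaks were partly others. The widest, 22723 bp at chr20:50264137-50286859, lay 91.0 kb from CEBPB, which encodes the transcription factor C/EBP beta, and had a fold of 34.9. The next, 21164 bp at chr4:73717525-73738688, lay 9 kb from CXCL8, the gene for the neutrophil chemokine interleukin-8, with a fold of 75. RGS16, TPRG1 (20409 bp, fold 72.0), SPRY2 (19863 bp, 27.3), DUSP6 (17806 bp, 59.7), ITGB2 (16834 bp, 87.8), FTH1 (16420 bp, 60.1) and PHLDA1 (16246 bp, 71.8) were also among the widest. SPRY2 and DUSP6 encode feedback inhibitors of ERK signalling, ITGB2 the beta chain of leukocyte integrins and FTH1 ferritin heavy chain.

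Distance from the nearest gene end had a median of 40.3 kb, with quartiles of 14.3 and 106 kb, and narrower intergenic peaks had a median of 37.6 kb. Summits lay within 10 kb of a gene for 274 peaks, from 10 to 50 kb for 568, from 50 to 100 kb for 271, from 100 to 500 kb for 352 and farther for 46. Median fold was 24.2, 24.6, 22.8, 22.5 and 17.9 over these 5 classes. The farthest lay 1824748 bp from STIM2, with a fold of 7.65 from 20 fragments, followed by a peak 1783750 bp from AGA (11.1). A peak at chr4:180056865-180060186, 1389099 bp from TENM3, had a fold of 62.8 from 245 fragments and was the strongest of the 5 most remote; the others near TENM3 and ZEB2 had 10.2 and 15.3.

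Wide intergenic peaks often came in groups. Another of them lay within 10 kb, edge to edge, for 521, or 34.5% (32.1 to 36.9%), and the longest run held 9. The shares for the comparison sets, each counted among its own peaks, were 35.3% for wide peaks inside gene bodies, 9.84% at gene ends and 72.5% for narrower intergenic peaks, and 76.9% over all H3K27ac peaks; sets with more peaks per Mb meet another more often. The 1511 peaks lay in 849 gaps between neighbouring genes, of which 556 held 1 peak and 47 held 5 or more. Those 47 gaps held 347 peaks, or 23%, and had a median length of 480 kb, against 127 kb for all 849 and 34.5 kb for the 12569 gaps over 5 kb in the annotation.

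The fullest gaps had 15 wide peaks each. Between CEBPB and PTPN1, a phosphatase gene, they covered 99.0 kb, or 31.2% of 318 kb, with folds from 6.96 to 56.8 and a median of 23.9. Between CD83, an activation marker of antigen-presenting cells, and JARID2 they covered 85.4 kb of 1110 kb, with folds from 8.26 to 56.3. MTSS1 to ZNF572 held 12 peaks over 32.7% of 245 kb and the highest median fold of the 10 fullest gaps, 43.3.

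ZEB2 to ACVR2A, beside the myeloid regulator ZEB2, held 12 over 3320 kb, and MYC to GSDMC 12 over 1960 kb. BTG1 to PLEKHG7 and IRF2BP2 to TOMM20 held 11 each, and KITLG to DUSP6, ZNF217 to BCAS1 and VEGFA to MRPL14 held 10 each. In these 10 gaps SIRT1 peaks overlapped 1 wide peak in BTG1 to PLEKHG7 and 1 in ZNF217 to BCAS1, and none in the other 8. Over all 1511 wide intergenic peaks the share was 2.51%, so none in a gap of 10 to 15 peaks says little.

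**Figure D3:**
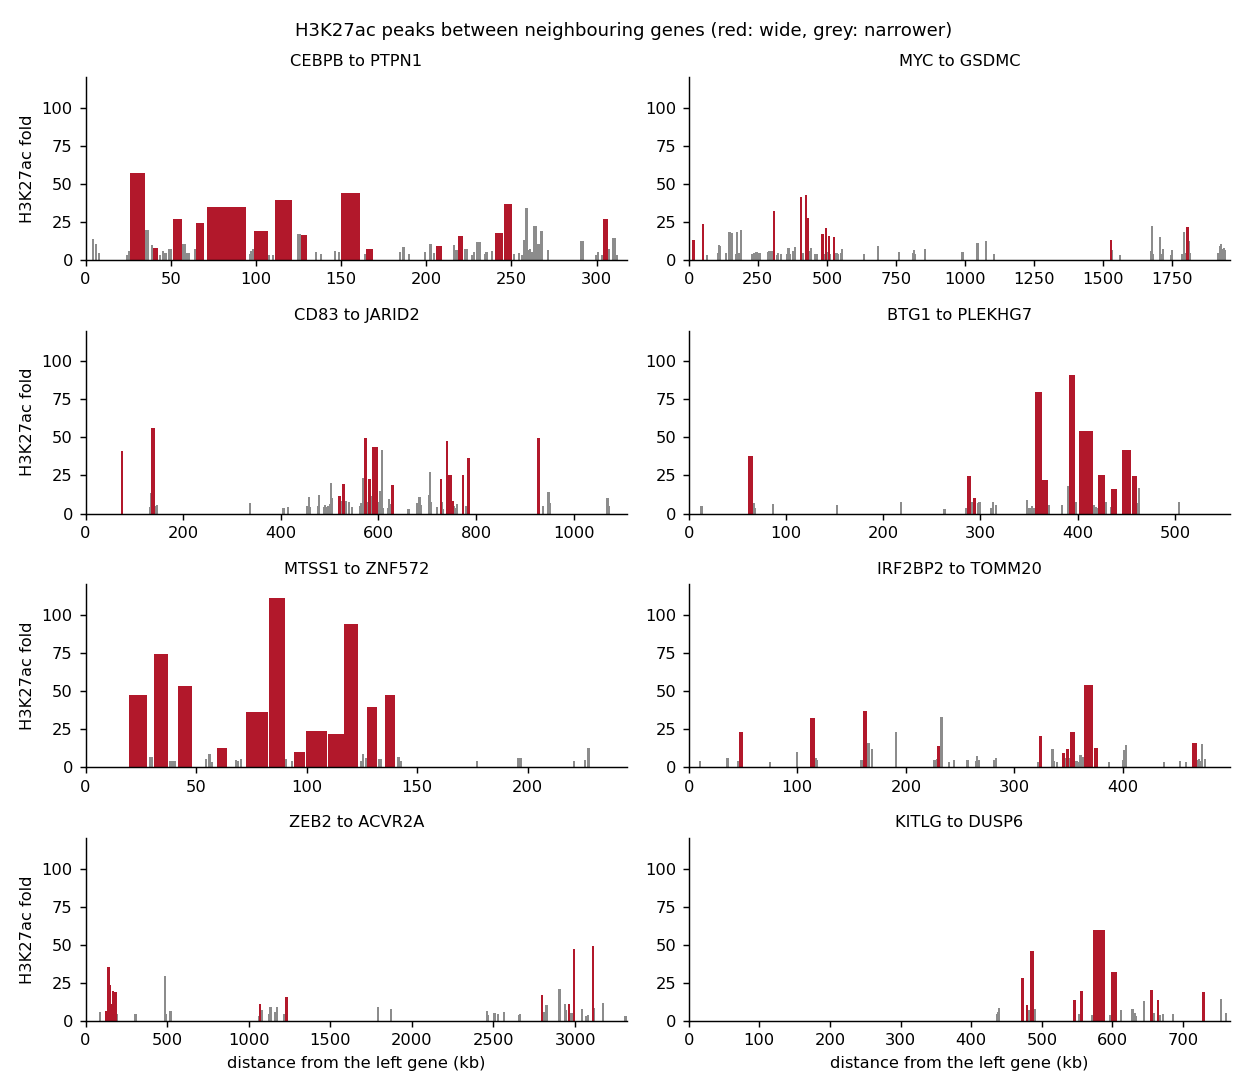
H3K27ac peaks in the 8 gaps with the most wide intergenic peaks; x axis, distance in kb from the end of the gene on the left; y axis, fold, with each bar as wide as its peak or at least 0.4% of the axis. Red bars are wide and grey bars narrower intergenic peaks. Wide peaks fill much of CEBPB to PTPN1 and MTSS1 to ZNF572, whereas in ZEB2 to ACVR2A and MYC to GSDMC they stand in small groups far apart.

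As neighbours, 941 of 19970 protein-coding genes, or 4.71%, were the nearest to at least 1 wide intergenic peak, and 37 genes were nearest to 5 or more. JARID2, a Polycomb partner gene, had the most, 11, at 183 to 535 kb. MTSS1, PLEKHG7, DUSP6 and MYC had 10 each, CEBPB, MRPL14 and DUSP10, a MAP kinase phosphatase gene, 9 each, and MYEOV and ZEB2 8 each. At CEBPB the 9 peaks had folds of 56.8, 44.2, 39.1, 34.9, 26.7, 23.9, 18.7, 16.4 and 7.66, at 34.5 to 155 kb from the gene. At DUSP6 the 10 ran from 59.7 down to 10.1, at 37.6 to 294 kb.

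Of the 160 genes in 8 lists for macrophages, 52 were nearest to a wide intergenic peak, or 32.5% (25.3 to 40.3%), against 4.71% of all protein-coding genes. Of 140 markers of other cell types 8 were, or 5.71% (2.5 to 10.9%), and of 40 oxidative phosphorylation and ribosomal protein genes 1 was, ATP5PO. The 8 lists are not confined to genes particular to macrophages, since they include early response, kinase feedback and cytoskeleton genes. The macrophage identity list alone had 1 of 20, or 5%, near the share of all protein-coding genes. All lists were written with earlier results of these data known, so the counts are descriptions. At the gene ends themselves, where 56.8% of all protein-coding genes had an H3K27ac peak within 1 kb, the same 3 groups had 143 of 160, 32 of 140 and 40 of 40.

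The myeloid transcription factor list had 10 of 20. KLF6, a zinc finger factor, had 4 peaks with folds of 69.6, 60.9, 26.5 and 23.3. CEBPB had 9, as above, and KLF4 had 2, with 36.0 and 18.3. CEBPA, RUNX1, ETS2, RUNX3, EGR1 and IRF8 were also among them, with highest folds from 33.7 at CEBPA to 6.26 at IRF8. SPI1 is not counted, since its neighbouring peak was nearer to SLC39A13.

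AP-1 and early response genes also had 10 of 20. ZFP36L1, an mRNA decay factor gene, had a fold of 55.9, JUND 49.9, FOS 45.0 over 10191 bp, and MYC 42.7 at the highest of its 10 peaks. FOSL2, JUN, BATF3, ATF3, IER3 and IER2 were the others, from 40.1 to 10.3. Kinase feedback genes had 9 of 20 with 28 peaks, led by RGS16 (107), DUSP6 (59.7), SPRED2 (38.5) and SPRY2 (34.7), and then RGS1, PIM1, TRIB1, DUSP4 and SPRY1.

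Adhesion, cytoskeleton and matrix genes had 7 of 20. ITGB2 stood at 87.8, the intermediate filament gene VIM at 40.1, ITGB1 at 38.5 and the matrix protease gene MMP9 at 34.2, with ACTB, CD44 and PLAUR below. Lipid, iron and lysosome genes had 6 of 20 with 17 peaks. ABCA1, the cholesterol exporter, had 5 peaks with folds of 71.1, 49.6, 44.4, 42.0 and 24.3 at 63.5 to 144 kb, FTH1 had 5 led by 60.1, and CTSL, a cathepsin gene, and LPL, lipoprotein lipase, had 1 each at 46.8 and 44.7. The cathepsin genes CTSB and CTSD had highest folds of 43.3 and 37.7.

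Cytokine and chemokine genes had 5 of 20. CXCL8 had 2 peaks with folds of 75 and 27.7, and the lncRNA records INKILN and UMLILO lie over or beside them. IL1B had 51.7 and 37.9, IL1A 47.6 and 20.1, CCL5 33.0 and CXCL3 11.1. NF-kB pathway genes and inflammatory brakes had 4 of 20, namely NFKBIA (34.6), IRAK3 (33.6), TNFAIP3 (23.5 at the highest of 3) and TNIP1 (21.0), which all restrain NF-kB or Toll-like receptor signalling.

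Macrophage identity genes had 1 of 20, the integrin gene ITGAX at a fold of 11.3, whereas 15 of the 20 had an H3K27ac peak at a gene end and 10 were nearest to a narrower intergenic peak. The difference between lists was not tested. Against 21.7% of all protein-coding genes, 67.5% of the 160 macrophage list genes and 25% of the 140 other markers were nearest to a narrower intergenic peak.

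Among other cell types, B cell markers had 2 of 20, FCER2 (43.9), a receptor gene that monocytic cells also use, and EBF1 (22.7). T and NK cell markers had 2, BCL11B (25.2) and EOMES (23.4), hepatocyte markers 1, SERPINA1 (27.9 and 25.3), which monocytes also express, and fibroblast and endothelial markers 3, PDGFRB (53.2), CLDN5 (28.4) and PECAM1 (7.63). Erythroid, neuron and epithelial markers had 0 of 20 each, as had cytosolic ribosomal protein genes, which allows a share of up to 16.8%.

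**Figure D4:**
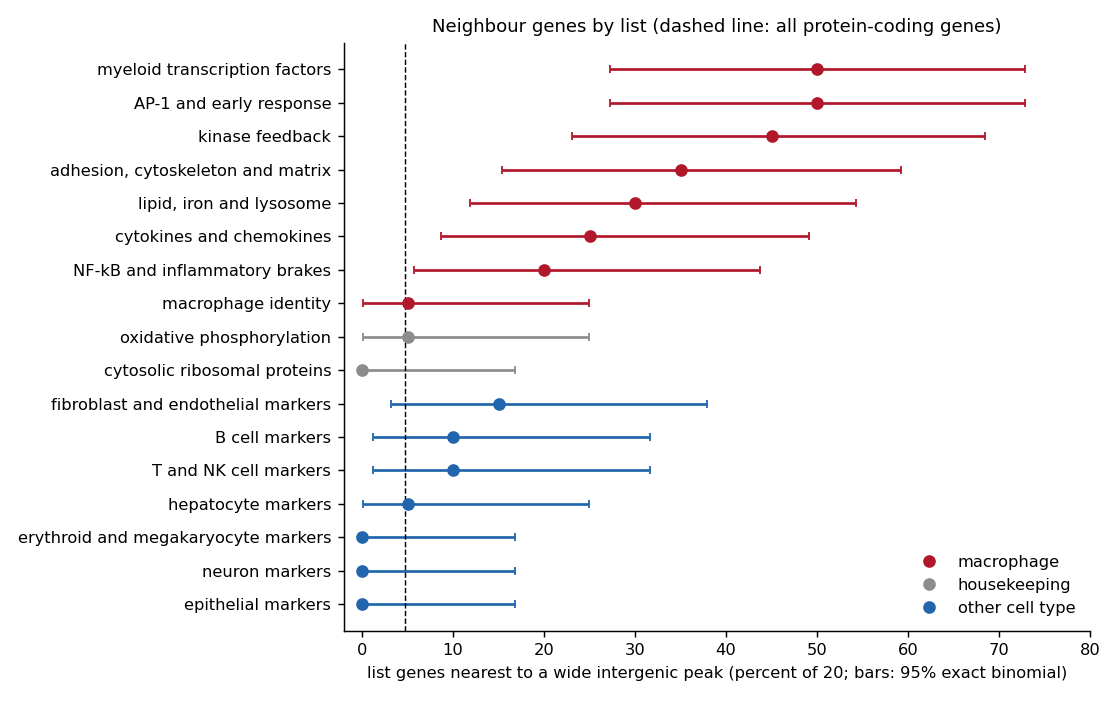
Percent of the 20 genes of each list that were nearest to a wide intergenic peak (points) with 95% exact binomial intervals (bars), for 8 macrophage, 2 housekeeping and 7 other cell type lists; the dashed line is the 4.71% of all protein-coding genes. Myeloid transcription factors and AP-1 and early response genes stand at 50%, macrophage identity genes at 5%, near the line.

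The room beside a gene moved with these counts. The larger of the 2 neighbouring gaps had a median of 68.2 kb for macrophage list genes, 43.7 kb for markers of other cell types, 14.6 kb for housekeeping genes and 35.3 kb for all. At like room, with a larger gap of 100 to 500 kb, 19 of 42 macrophage list genes (45.2%, 29.8 to 61.3%) were nearest to a wide peak, against 1 of 33 markers of other cell types (3.03%) and 10.3% of 3760 genes in all. At 10 to 50 kb the shares were 20.8% (11 of 53), 4.55% and 2.33%, and at 50 to 100 kb 30.0%, 8.70% and 5.48%. Beyond 500 kb they were 76.5% (13 of 17), 25% (3 of 12; 5.49 to 57.2%) and 16.4%, and up to 10 kb 0 of 18, 0 of 28 and 0.0825%. Markers of other cell types thus stood below all genes at 100 to 500 kb and above them in the other classes over 10 kb, on 1 to 3 genes a class. Counting both genes beside each peak as neighbours gave 39.4% of macrophage list genes, 9.29% of other markers and 7.94% of all genes.

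SIRT1 was not used by the rule. Of the 1511 wide intergenic peaks, 38 shared at least 1 base with a SIRT1 peak, or 2.51% (1.79 to 3.44%), against 3.55% (2.75 to 4.49%) of wide peaks inside gene bodies, 2.21% of wide peaks at gene ends, 1.41% (1.22 to 1.62%) of narrower intergenic peaks and 1.45% of all H3K27ac peaks. A wide peak has more bases to meet a SIRT1 peak, and per Mb the narrower intergenic peaks stood highest, while the 3 wide sets kept their order. SIRT1 peaks numbered 6.03 per Mb (95% exact Poisson interval 4.29 to 8.24) in wide intergenic peaks, 8.23 (6.40 to 10.4) in wide peaks inside gene bodies, 5.41 (3.93 to 7.26) at gene ends and 19.1 (16.5 to 21.9) in narrower intergenic peaks.

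Counted by summit, which does not grow with the width of the SIRT1 peak, the densities were 5.41 per Mb (3.77 to 7.52), 7.75, 4.92 and 13.2 in the same order. In acetylation-free ground up to 5 kb outside the wide intergenic peaks SIRT1 summits numbered 14.1 per Mb (12 to 16.5), at 5 to 50 kb 23.6 (22.6 to 24.7), and over whole chromosome spans 31.4. The local H3K27ac background moved with these values in narrower intergenic peaks, where the intervals of its classes stand apart. Wide intergenic peaks on the floor had 10.0 summits per Mb (3.25 to 23.4), those up to 2 floors 5.58 (3.31 to 8.82) and those above 4.37 (2.26 to 7.63), and narrower intergenic peaks had 25.4 (18.0 to 34.7), 14.2 and 4.98 (2.79 to 8.21). Wide peaks inside gene bodies had 5.66 (1.17 to 16.5), 9.93 (7.15 to 13.4) and 5.52 (3.37 to 8.52), and wide peaks at gene ends had 7.84 (0.949 to 28.3), 6.55 and 4.25. Within each wide set the intervals of the classes overlap. On the floor the wide intergenic, gene body and gene end sets rest on 5, 3 and 2 summits. The intervals of wide and narrower intergenic peaks thus overlap on the floor and above 2 floors. They stand apart only in the class between, at 3.31 to 8.82 against 11.4 to 17.6. The part of background and mappability in the densities was not tested.

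**Figure D5:**
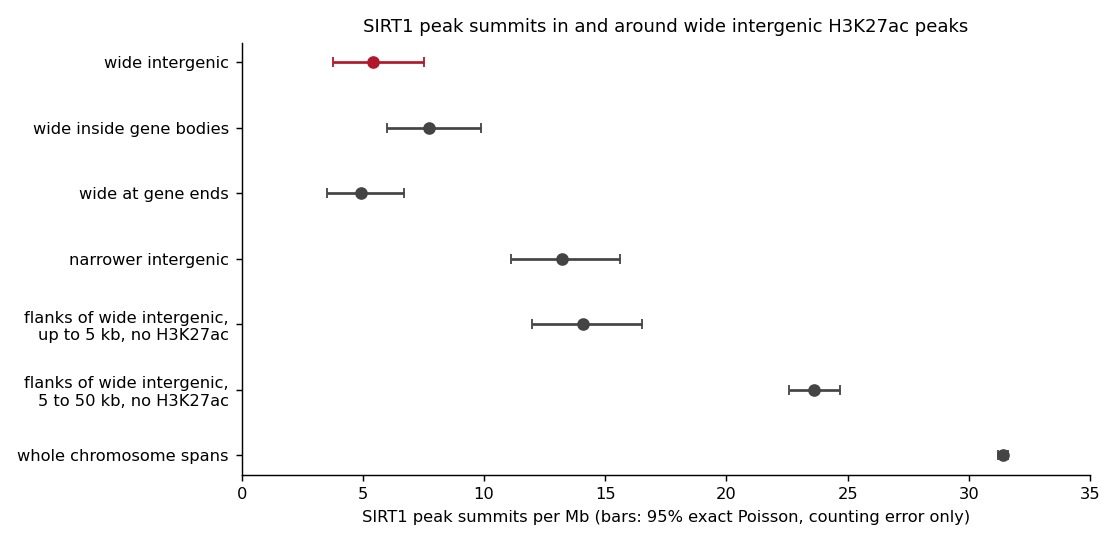
SIRT1 peak summits per Mb (points) with 95% exact Poisson intervals for counting error (bars) in wide intergenic peaks, the 3 comparison sets, the flanks of wide intergenic peaks and whole chromosome spans. Wide intergenic peaks stand at 5.41 per Mb, the near flanks at 14.1 and the whole spans at 31.4.

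The 39 SIRT1 peaks in question were weak. At their summits 13 had 2 fragments, 16 had 3 and 10 had 4 or 5, and their median fold was 2.87, beside 2.78 for all SIRT1 peaks. None reached a q of 0.05, which 135 of all 95225 SIRT1 peaks (0.142%) did, so 0 of 39 is near that background; the highest −log10 q among them was 0.294. The peak near KCNE2 at chr21:34280561-34283299 was the only one with 2, with SIRT1 folds of 3.47 and 2.94 from 4 and 3 fragments, at an H3K27ac fold of 26.3. The highest SIRT1 fold, 3.87 from 5 fragments, was near SNTG1, followed by ASB13 (3.23), RGS16 (3.16) and PRDM7 (3.10), each from 4 fragments.

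At the RGS16 peak the SIRT1 call covered chr1:182600290-182600757, over the RGS16 record and far from the H3K27ac summit. Over all 39 the median distance between both summits was 1478 bp. Of the list genes, RUNX3 (SIRT1 fold 2.09) and SPRY2 (2.20), each from 2 fragments, had such a peak besides RGS16, and the Toll-like receptor gene TLR2, in no list, had one at 2.12 from 2 fragments. By distance to the nearest gene, SIRT1 peaks per Mb were 6.17 within 10 kb and 6.96 at 10 to 50 kb. They were 6.94 at 50 to 100 kb and 4.51 at 100 to 500 kb, and the intervals overlap. Of the 46 wide intergenic peaks beyond 500 kb, 0 had a SIRT1 peak, which allows up to 19.4 per Mb.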

How the data were processed

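ChIP-seq peak lists of PMA-treated THP1 cells were used, 1 for H3K27ac (50268 peaks) and 1 for SIRT1. The submitters' processing notes name the tools MACS2 and deepTools and the build hg38; no version, aligner or control library was given in the sources used here. The deposited fold of each peak is the authors' ratio to local background. Each peak's significance was deposited by the authors as −log10 p and as −log10 q, and the deposited score was 10 times −log10 q for H3K27ac and 10 times −log10 p for SIRT1. The 2 lists were thus filtered on different quantities, with a smallest −log10 q of 1.30 for H3K27ac and 0 for SIRT1, and folds were compared within a list only.

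Fragments k and background b at each summit were recovered from fold = (k + 1)/(b + 1) and p as a Poisson tail; 99.984% of H3K27ac and 99.998% of SIRT1 peaks had 1 solution. Tested on simulated data, it recovered every one of 1995 peaks drawn like H3K27ac and 2000 drawn like SIRT1. The floors were 0.937 and 0.362 fragments. Read totals were not used here, so depth is known only at summits.

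Genes, starts, promoters and microRNAs came from RefSeq tables of GRCh38.p14; all 340 protein-coding list symbols matched. A gene's distance was taken to the nearer end of its record. Regions named were the 10 with the highest fold, the 10 widest, the 5 with most SIRT1, the 5 farthest from a gene and those at the limits of the rule; genes named were the 10 with most peaks and up to 4 per list with values, by fold, and up to 10 noncoding genes by fold. Some items that this rule names are not reported here. Other genes, the microRNAs and the printed promoters were chosen after their values were seen. The members and lists were chosen with earlier results of these data known. Intervals are at 95%, exact binomial, Poisson or order-statistic, and cover counting error only. With 1 library an antibody no test was run. Computations used scipy 1.17.1, pandas 2.3.3 and numpy 2.4.6 under Python 3.11.15, and plots matplotlib 3.10.9.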

Additional observations from a re-analysis of the deposited data

Results flagged for a closer look

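Outside the chromosomes used, the H3K27ac list held 96 peaks of at least 2500 bp, and they stood out because no comparison above uses them. Of these, 90 lay on alternate contigs, 39 of which belong to chromosome 6, 4 on chromosome Y and 2 on other contigs. Their highest fold was 85.2 and their greatest width 8194 bp.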

How the results depend on the processing

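Of 82 values recomputed under another setting, 64 stayed within 1.5 times (counts) or within the interval of the reported value. A width limit of 2000 bp gave a median fold of 19.8 and 37.4% with another wide peak within 10 kb; 3000 bp gave a median fold of 26.7 and 23.1% of macrophage list genes as neighbours. Keeping away from gene records of every kind, noncoding ones included, left 839 peaks and 576 nearest genes, with 29.8% within 10 kb of another and 22.5% of macrophage list genes. A −log10 q of at least 20 gave a median fold of 24.3. Another wide peak lay within 5 kb for 24.0% and within 20 kb for 42.9%, and both flanking genes made 1586 neighbours. With SIRT1 peaks restricted to a fold of at least 4, the overlap was 0% (upper limit 0.244%) and 0 per Mb (upper limit 0.57), and the same holds at a q of at most 0.05. On the 125 members on the background floor, an alternative chosen after seeing the data, SIRT1 overlapped 4% (1.31 to 9.09%) at 12 per Mb (4.41 to 26.2). The SIRT1 limits leave fewer peaks by construction; for the others the cause was not tested. No paired analysis was possible because each antibody had 1 library, and no replicate could be left out for the same reason. Most SIRT1 peaks here rest on 2 or 3 fragments, which limits every SIRT1 value.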

Other observations

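The wide intergenic peaks were unevenly spread over chromosomes. Chromosome 1 held the most, 163, but at 9.64% of its intergenic peaks it was near the 9.57% over all chromosomes used. The wide peaks made up from 5.54% of intergenic peaks on chromosome 16 to 12.2% on chromosome 12. On chromosome X, 71.1% of them had a local background on the floor, against 0 to 17.8% on the other chromosomes, so an equal fold there rests on fewer fragments; the MIR223 peak and the MIR222HG peaks were among them. In the gap between PLEKHO2 and ANKDD1A, 5 wide peaks covered 61.1% of its length.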
